A study of Mus musculus with 52 samples.

Results

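Genes of the acute phase response and of early inflammatory signalling were followed in mouse liver after a single dose of 1 of 8 chemicals. The 10 genes were Saa1, Saa2, Saa3, Saa4, Orm2, Hp, Lcn2, Cxcl1, Socs3 and Hamp, and every probe set annotated to 1 of these symbols alone was taken, which gave 15 of the 22626 probe sets on the arrays. All 15 passed the filter on low signals, which kept 18349 probe sets. The study asked which genes separate chemicals that damage DNA and cause liver cancer from chemicals that do not damage DNA.

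The liver was that of male B6C3F1 mice dosed once into the peritoneal cavity at 9 weeks of age, according to the methods, and the RNA of 5 mice was pooled for each array. The genotoxic chemicals comprised 3 alkylating agents, namely ethylnitrosourea (ENU) at 150 mg/kg, dipropylnitrosamine (DPN) at 250 mg/kg and dimethylnitrosamine (DMN) at 5 mg/kg. They also comprised 3 aromatic mutagens, namely dimethylbenzanthracene (DMBA) at 20 mg/kg, o-aminoazotoluene (AAT) at 300 mg/kg and dibenzopyrene (DBP) at 6 mg/kg. The non-genotoxic chemicals were phenobarbital (PB) at 30 mg/kg and ethanol (EtOH) at 1000 mg/kg. Livers were taken at 4 h, 20 h, 14 days and 28 days, with 8 treated and 5 vehicle pools at each time. AAT, DMBA and DBP shared an olive oil control, EtOH and PB shared a saline one, and each alkylating agent was given beside its own saline pool. All mice, controls included, received an injection. With 1 array per chemical and time, no ratio of a single chemical has a replicate, and the spread over the 5 control pools of a time was the only measure of how far pools of like mice differ.

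The acute phase response is the change in secreted proteins that the liver makes during inflammation or after tissue injury. Interleukin 6, acting through STAT3, and interleukin 1 and tumour necrosis factor, acting through NF-kB and C/EBP factors, raise the transcription of serum amyloid A, orosomucoid, haptoglobin and lipocalin 2 in hepatocytes. Cxcl1 is a chemokine that draws neutrophils, Socs3 is a feedback inhibitor of interleukin 6 signalling, and Hamp encodes hepcidin, the hormone that limits iron export from cells.

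Sequence upstream of the transcription start was available for 9 of the 10 genes in the RefSeq promoter table (GRCm38.p6), and Hp was not listed. The 200 bases before the start are shown for 5 genes: Saa1 and Saa2 because their probe sets cannot be fully told apart, Orm2 as a second hepatocyte gene that swung widely, and Cxcl1 and Hamp because they hold the NF-kB and STAT matches described next. Capitals mark matches on either strand to TTGCNNAA (C/EBP), to the NF-kB motif (GGG and TTTCC with any 2 bases between them), to TTCNNNGAA (STAT) or to TATAAA (core promoter box). The match in Orm2 at position -120 reads as C/EBP on both strands.
Saa1, chr7:46742981-46743180, minus strand: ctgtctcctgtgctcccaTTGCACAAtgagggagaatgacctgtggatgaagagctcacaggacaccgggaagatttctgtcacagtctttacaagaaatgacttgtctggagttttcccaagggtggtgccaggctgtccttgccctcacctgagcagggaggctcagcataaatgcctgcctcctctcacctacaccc
Saa2, chr7:46751633-46751832, plus strand: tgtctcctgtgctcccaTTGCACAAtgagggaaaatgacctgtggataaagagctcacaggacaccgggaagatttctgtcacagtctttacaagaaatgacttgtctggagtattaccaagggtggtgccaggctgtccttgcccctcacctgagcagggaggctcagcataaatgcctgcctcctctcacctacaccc
Orm2, chr4:63362249-63362448, plus strand: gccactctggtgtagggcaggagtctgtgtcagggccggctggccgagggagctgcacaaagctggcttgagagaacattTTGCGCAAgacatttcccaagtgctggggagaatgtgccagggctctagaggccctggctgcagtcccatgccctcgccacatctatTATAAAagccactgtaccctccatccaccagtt
Cxcl1, chr5:90891045-90891244, plus strand: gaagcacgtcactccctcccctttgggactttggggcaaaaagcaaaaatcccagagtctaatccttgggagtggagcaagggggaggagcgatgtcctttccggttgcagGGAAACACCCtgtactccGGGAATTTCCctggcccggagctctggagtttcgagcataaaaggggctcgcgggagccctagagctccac
Hamp, chr7:30944030-30944229, minus strand: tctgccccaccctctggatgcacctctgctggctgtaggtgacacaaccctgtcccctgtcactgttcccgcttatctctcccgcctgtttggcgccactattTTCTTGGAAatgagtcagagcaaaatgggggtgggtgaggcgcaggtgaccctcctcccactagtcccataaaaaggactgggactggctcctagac

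The Saa1 and Saa2 stretches were 97% identical over 201 aligned columns, and both held the same C/EBP match, TTGCACAA. Over the 250 bases before the start, 6 of the 9 genes held a C/EBP match (Saa1, Saa2, Saa3, Saa4, Orm2 and Lcn2), against 9.56% of 32851 RefSeq promoters. Cxcl1 held 2 NF-kB matches, at positions -71 and -89, and 1.41% of all promoters held at least 1. The stricter form with A and C between the blocks was in 0 of the 9 and in 0.14% of all promoters. Hamp and Socs3 held a STAT match, at -97 and -154, against 7.02% of all promoters. Orm2 alone held TATAAA, against 12.4% of all promoters. These matches describe the letters only.

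The probe sets carry limits of their own. One of the pair annotated to Saa1, 1419075_s_at, was designed on an accession that RefSeq now gives to Saa2, so Saa1 and Saa2 signals cannot be fully told apart. Probe sets ending in _x_at or _s_at may read related transcripts, which touches Saa2, Saa1, Socs3 and Hamp. Signals below are log2 values after scaling each array to a common median, with a floor at 5.02.

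A few arrays stood apart. Array medians ran from 17.9 (PB, 28 days) to 205.1 (the DMN saline control of 14 days), with the next at 40.5 and 106. The EtOH array of 20 h had a Gapdh 3′ to 5′ log2 ratio of 3.13, against -0.51 to 0.34 in the other 51 arrays, and its Saa4 probe sets disagreed. The phenobarbital target Cyp2b10 had a log2 signal of 8.25 in the library labelled PB 20 h, against 11.48 in the library labelled as its saline control and 6.80 to 7.26 in the other saline controls of 20 h, so directions drawn from those 2 libraries are open to doubt. Hepatocyte markers were high in all control livers, with list means of 12.91 to 13.45. In whole liver, a change in the number of cells of a type and a change in RNA per cell cannot be told apart.

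Vehicle-treated livers differed from each other many-fold in these genes at 4 h and 20 h. Lcn2, which encodes a protein that withholds iron from bacteria, had log2 signals of 5.82, 9.34, 11.91 and 7.23 in the saline controls of the ENU, DMN, DPN and EtOH and PB sets at 4 h, and 9.42 in the olive oil control. The highest and lowest of those saline pools differed 68.2-fold. At 20 h the same sets gave Lcn2 signals of 5.90, 8.49, 10.90 and 7.06, and 12.05 in olive oil. The ENU control was lowest and the DPN control highest of the saline pools at both times.

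Saa2, a major circulating serum amyloid A of the mouse, showed the same order at its low end. At 4 h its log2 signals were 8.91, 12.46, 12.72 and 11.12 in the saline controls of ENU, DMN, DPN and EtOH and PB, and 12.25 in olive oil. At 20 h they were 8.74, 12.68, 12.66 and 9.85, and 12.68 in olive oil. The olive oil, DMN and DPN pools were nearly equal at 20 h, and the highest saline pool exceeded the ENU pool 15.4-fold. Saa1 (1450788_at) was also lowest in the ENU control, at 10.84 at 4 h and 11.27 at 20 h, and its saline pools spanned 4.48-fold at 4 h.

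Saa3, the serum amyloid A made largely by macrophages and fat cells, had log2 signals of 8.21, 10.40, 12.01 and 7.68 in the saline controls at 4 h in the same order, and 8.24 in olive oil. Its saline pools spanned 20.2-fold at 4 h and 27.4-fold at 20 h. Orm2, an orosomucoid that binds drugs and lipids in plasma, ran from 6.52 (ENU) to 10.35 (DMN) at 4 h and from 6.66 (ENU) to 11.28 (olive oil) at 20 h. For Saa1, Saa2, Saa3, Orm2, Lcn2 and Cxcl1, the SD over the 4 saline pools lay at the 99.1st percentile of all probe sets or higher at both 4 h and 20 h. For Cxcl1 at 20 h this rests largely on the library labelled as the saline control of EtOH and PB, whose label is in doubt. It had 5.46, while the highest saline pool had 7.25 and the median of the 5 controls was 7.06.

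Hp, Hamp and Saa4 varied less between control pools than the genes above. Hp, which encodes haptoglobin, the binder of free haemoglobin, had control signals of 12.64 to 13.38 at 4 h and 12.66 to 13.35 at 20 h. Hamp (1419196_at) had 12.51 to 13.07 and 12.25 to 12.84 at these times. Saa4, the serum amyloid A made constitutively, had 11.73 to 12.25 and 11.51 to 12.11 (1419318_at). The saline pools of these probe sets at 4 h spanned 1.67-fold for Hp, 1.40-fold for Hamp and 1.23-fold for Saa4. The second Saa4 probe set, 1419319_at, varied more, from 9.91 to 11.32 over the 5 controls of 4 h, with saline pools spanning 2.55-fold. The SD of Hp over the saline pools lay at the 76.0th percentile of all probe sets at 4 h and at the 79.0th at 20 h.

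**Figure D1:**
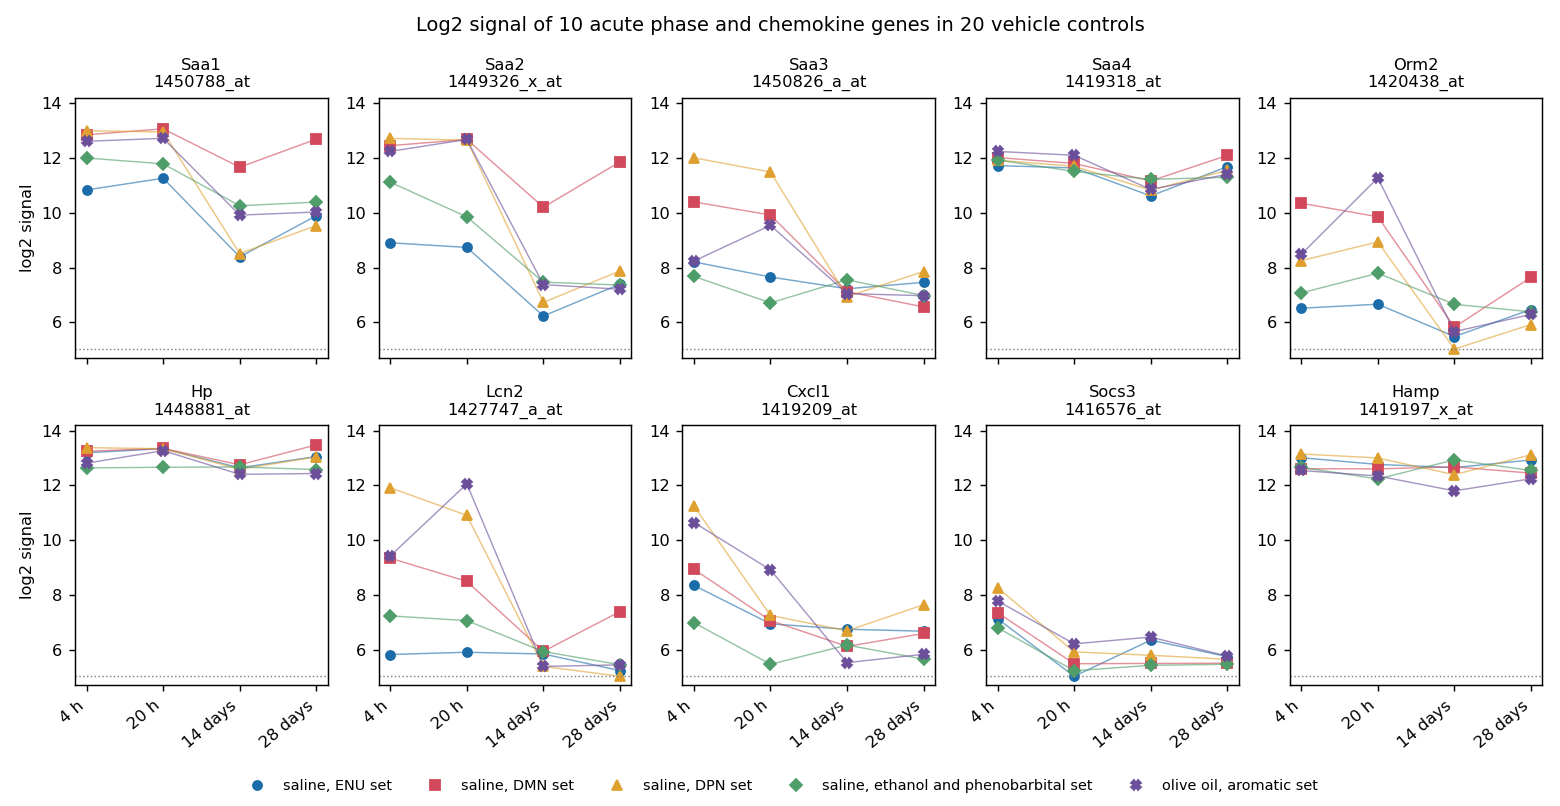
Log2 signal (vertical axis) of 1 probe set for each of the 10 genes in the 20 vehicle controls, by time after dosing (horizontal axis), with 1 colour and marker for each control set and a dotted line at the floor of 5.02. Lcn2 spread from 5.82 to 11.91 at 4 h and from 5.38 to 5.93 at 14 days, while Hp stayed between 12.40 and 13.48 at all times. Each gene is shown by its probe set with the highest mean signal, except Socs3, shown by 1416576_at.

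Control livers of 14 days had lower signals than those of 4 h in most of these genes. Of the 15 probe sets, 10 were lower at 14 days (limma, Benjamini-Hochberg adjusted p under 0.05 over all 18349 probe sets), against 6.75% of all probe sets lower. The median difference was -1.80 on the log2 scale, against -0.07 over all probe sets. At 14 days Saa2 had signals of 6.23, 10.21, 6.73 and 7.47 in the saline controls of ENU, DMN, DPN and EtOH and PB, and 7.38 in olive oil. It averaged 7.60 ± 1.54 at 14 days and 11.49 ± 1.57 at 4 h (SD, n = 5 each), a difference of -3.89 (SE 1.02, adjusted p = 0.0285), or 14.8-fold. The DMN control was the high pool at 14 days and lay above the lowest pool of 4 h, so the groups overlapped.

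Cxcl1 had signals of 6.74, 6.11, 6.69 and 6.16 in the saline controls at 14 days in the same order and 5.52 in olive oil, against 8.34, 8.93, 11.24, 6.98 and 10.64 at 4 h. All 5 pools of 14 days lay below all 5 of 4 h, and the difference was -2.98 (SE 0.68, adjusted p = 0.0162). Saa1 (-2.51 and -2.85), Orm2 (-2.41), Saa4 (-1.03 and -1.11) and all 3 Socs3 probe sets (-1.56 to -1.80) were also called lower. Lcn2 differed by -3.05 (SE 1.05, adjusted p = 0.0740) and Saa3 by -2.13 (SE 0.79, adjusted p = 0.0919), which did not pass. Hp (-0.44) and Hamp (-0.30 and -0.26) did not pass either, the largest adjusted p being 0.366.

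Controls did not overlap between 14 days and 4 h for 6 of the 15 probe sets (the 3 of Socs3, and 1 each of Cxcl1, Saa3 and Saa4), against 4.31% of all probe sets lying wholly below. The count of 10 depended on single control sets: it was 1 without the DPN set (Saa4), 5 without the ENU set and 2 with saline controls alone, and all 15 differences were negative in each of these fits. With values as deposited, unscaled, 0 were called. The share of all probe sets called in these alternative fits is not given here, so the counts show only how far the members moved. The 14-day controls were also called lower in 1238 and higher in 284 probe sets overall. Pools of different times came from different mice, so time since the injection and age at sampling cannot be told apart, and these p-values measure only the spread between pools.

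Of the 10 genes, Socs3 was the one called at every later time. Its probe set 1416576_at had control signals of 5.02, 5.48, 5.91 and 5.23 in the saline pools and 6.21 in olive oil at 20 h, against 7.12, 7.35, 8.26, 6.80 and 7.78 at 4 h. No pool of 20 h reached any pool of 4 h. The difference was -1.89 (SE 0.27, limma adjusted p = 0.0126), and this was the only 1 of the 15 probe sets called, where 0.0218% of all probe sets were called lower. Controls of 20 h lay wholly below those of 4 h for this 1 member probe set, against 0.425% of all probe sets. The adjusted p was 0.0784 without the ENU set, 0.158 without the DMN set, 0.156 without the DPN set and 0.134 without the EtOH and PB set. The other Socs3 probe sets differed by -1.62 and -1.31 (adjusted p = 0.274 and 0.492), and Cxcl1 by -2.10 (adjusted p = 0.559).

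At 28 days all 15 differences from 4 h were negative, with a median of -1.60, against 0.02 over all probe sets. Socs3 1416576_at was again the 1 called (-1.84, SE 0.27, adjusted p = 0.0105), where 0.0654% of all probe sets were lower, and its pools of 28 days (5.46 to 5.76) lay wholly below those of 4 h, as for 0.550% of all probe sets. Without the DMN, the DPN or the EtOH and PB set the call was lost. The other Socs3 probe sets differed by -0.90 and -1.46 (limma adjusted p = 0.642 and 0.241). Saa2 had 7.39, 11.87, 7.88 and 7.36 in the saline pools and 7.21 in olive oil at 28 days. The DMN pool stood about 4 log2 units over the other 4, and the difference of -3.15 did not pass (adjusted p = 0.379). Lcn2 was also highest in that pool, at 7.39, against 5.02 to 5.45 in the other 4.

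Some other acute phase genes were also lower at 14 days, when 6.75% of all probe sets were called lower. Of 19 further positive acute phase genes measured, 6 were called lower at 14 days than at 4 h in controls and 0 higher: Mt1 (-3.86), Mt2 (-3.49), Steap4 (-1.66), Serpina3n (-1.29), Orm1 (-0.71) and Itih4 (-0.50). Mt1 and Mt2 encode metallothioneins, which bind zinc and copper, and were also lower at 28 days (-3.72 and -3.35, adjusted p = 0.0165 and 0.0105). They were the 2 of the 19 called at 28 days, where the list median was -0.09. At 20 h 0 of the 19 were called, and 13 were positive and 6 negative. Of 25 cytokine signalling genes, 8 were lower at 14 days, against the same 6.75% of all probe sets. They were the interleukin 1 receptor Il1r1 (-2.71), Cebpd (-1.49), Bcl3 (-1.23), Cebpb (-1.11), Nfkbiz (-0.90), Stat3 (-0.86), Il6st (-0.69) and Tnfrsf1a (-0.54). Il1r1 was also lower at 20 h (-2.55, adjusted p = 0.0126) and 28 days (-2.46, adjusted p = 0.0105).

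Of 5 negative acute phase genes such as albumin, 0 were called in any of these control comparisons. Among 15 other chemokines 1 was called, Ccl7, which was higher at 14 days (0.61), as were 284 of all 18349 probe sets. Among 12 genes of iron handling 1 was called, Tfr2, which was lower at 14 days (-0.46), a share near the 6.75% of all probe sets. The Kupffer cell markers Cd5l (-0.62) and Csf1r (-0.34) were 2 of 7 called lower at 14 days, against the same 6.75%. The mean of the Kupffer list was 7.57 to 7.84 in controls of 14 days and 7.65 to 8.13 in those of 4 h. All 7 neutrophil markers had negative differences, 0 called, with list means of 5.88 to 6.17 at 14 days and 6.08 to 6.52 at 4 h, and S100a8 was at the floor in 41 of 52 arrays. The part of these cells in the result was not tested.

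How far control pools deviated from the mean of their time was shared by some pairs of genes more than by others. Over the 20 controls, Saa1 and Saa2 had a Pearson r of 0.93, Orm2 and Lcn2 0.75, and Saa2 and Lcn2 0.75. Lcn2 also had 0.70 with Saa3 and 0.67 with Cxcl1, and Saa3 and Cxcl1 had 0.58. Cxcl1 and Socs3 (1455899_x_at) had 0.72, while Socs3 had 0.10 with Saa1 and 0.16 with Saa2. Hamp had -0.09 with Saa1 and -0.03 with Saa2. Within each pair both values came from the same arrays and scaling, and the 20 pools share 5 control sets, so these values are descriptive.

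**Figure D2:**
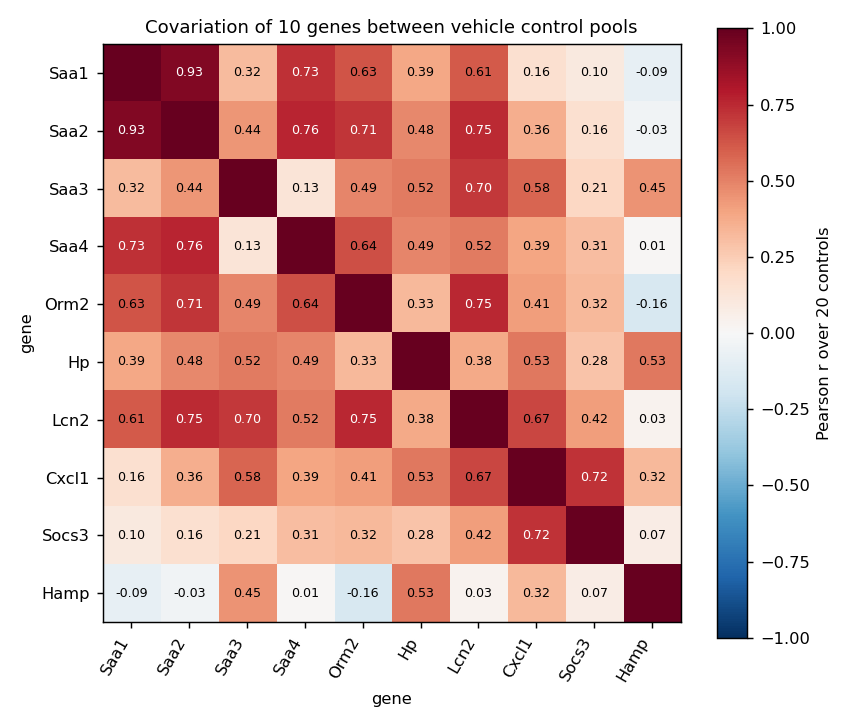
Pearson r between each pair of the 10 genes over the 20 vehicle controls, from deviations from the mean of each time, with genes on both axes and r as colour and number. Saa1, Saa2, Saa4, Orm2 and Lcn2 have r from 0.52 to 0.93 with each other, Lcn2 also has 0.70 with Saa3 and 0.67 with Cxcl1, Cxcl1 and Socs3 have 0.72, and Hamp has r from -0.16 to 0.03 with the first 5.

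Outside the 10, the gene closest to the mean deviation of Saa1, Saa2, Orm2, Lcn2 and Hp over the 20 controls was Lrg1 (r = 0.90), of 10728 genes searched. Ap2m1 (0.87), Serpina3n (0.84), Med21 (0.83) and Pard6b (0.81) came next. Lrg1, a secreted leucine-rich glycoprotein, ran from 10.29 to 12.21 in these controls, and Serpina3n, a protease inhibitor of plasma, from 9.33 to 11.87. Med21 and Pard6b reached only 6.84 and 6.29 and touched the floor.

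No class of chemicals changed any of the 15 probe sets past the threshold. With the control set as a block, genotoxic chemicals gave 0 called members at 4 h, 20 h, 14 days and 28 days, where 0% of all probe sets were called at each time by limma. At an unadjusted p under 0.05, the members counted 3, 0, 2 and 0, and all probe sets 1785, 847, 2164 and 1116. At 4 h 12 of the 15 were negative with a median of -0.78, against 0.015 over all probe sets. Cxcl1 was 7.58, 7.16, 6.81, 8.99, 10.87 and 10.34 after ENU, DMN, DPN, AAT, DMBA and DBP, and below its own control for all but DMBA. Its class difference was -1.74 (SE 0.65, adjusted p = 0.477). Lcn2 (-1.21), Saa3 (-1.17), Saa2 (-0.82) and Orm2 (-0.80) had SEs of 0.36 to 0.90, and Saa4 was 0.33 and 0.40. Without DPN the class differences were -0.97 for Cxcl1, -0.13 for Lcn2, -0.53 for Saa3 and 0.063 for Saa2, and without DMN that of Orm2 was -0.42.

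At 14 days 14 of the 15 members were positive for the genotoxic class, with a median of 0.51, against 0.05 over all probe sets. The median member ratio at that time was 1.58 after DMBA, and from 0.005 (DMN) to 0.53 (DBP) after the other genotoxic chemicals. The genotoxic effect at 4 h minus that at the later times was not called for any member either, where 0.00545% of all probe sets were called, and 5 members and 1150 of all 18349 probe sets had an unadjusted p under 0.05. Its smallest adjusted p among members was 0.467, for Socs3 1455899_x_at (-1.26, SE 0.37).

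The non-genotoxic chemicals gave 0 called members at each time, where 0.136%, 0.153%, 0.120% and 1.02% of all probe sets were called at 4 h, 20 h, 14 days and 28 days, and 0 members had an unadjusted p under 0.05 in limma at any time, against 644, 1008, 589 and 2850 of all probe sets. In that fit without PB, Hamp (1419196_at) was called at 20 h, on the EtOH array alone. Alkylating chemicals minus aromatic ones gave 0 called members too, where 0.125%, 0.0981%, 0.0436% and 0.0218% of all probe sets were called, and 1 member at 28 days had an unadjusted p under 0.05, as had 1243 of all probe sets. The largest of these differences among members was that of Lcn2 at 4 h, -3.45 (SE 1.55, adjusted p = 0.649), so a difference of several log2 units in Lcn2 could not be resolved with these pools. Lcn2 was 6.03, 7.06 and 6.89 after ENU, DMN and DPN, against 9.74, 10.84 and 10.92 after AAT, DMBA and DBP at 4 h. Their own controls were 5.82, 9.34, 11.91 and 9.42. The aromatic chemicals all share the olive oil set, so in these levels class cannot be told apart from set and vehicle.

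Each ratio of a chemical to its own control was then set against the largest difference between any 2 saline controls of the same time. Over the 8 chemicals, 11 of 120 member ratios were larger than that at 4 h (9.17%), against 17.0% of all ratios. At 20 h it was 16 (13.3%), against 21.3%. At 14 days it was 27 (22.5%), against 16.6%, and at 28 days 9 (7.5%), against 15.3%. DMBA gave 9 of the 27 at 14 days. The other 7 chemicals gave 18 of 105 (17.1%), against 16.5% of all ratios. The share of these genes was thus near or below that of all probe sets at each time, once DMBA was set aside at 14 days. DMBA was set aside after its values were seen. Saline controls differed widely in many of these genes at 4 h and 20 h, which makes the limit hard to pass. A low share there does not show a small response, and these shares were not tested.

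**Figure D3:**
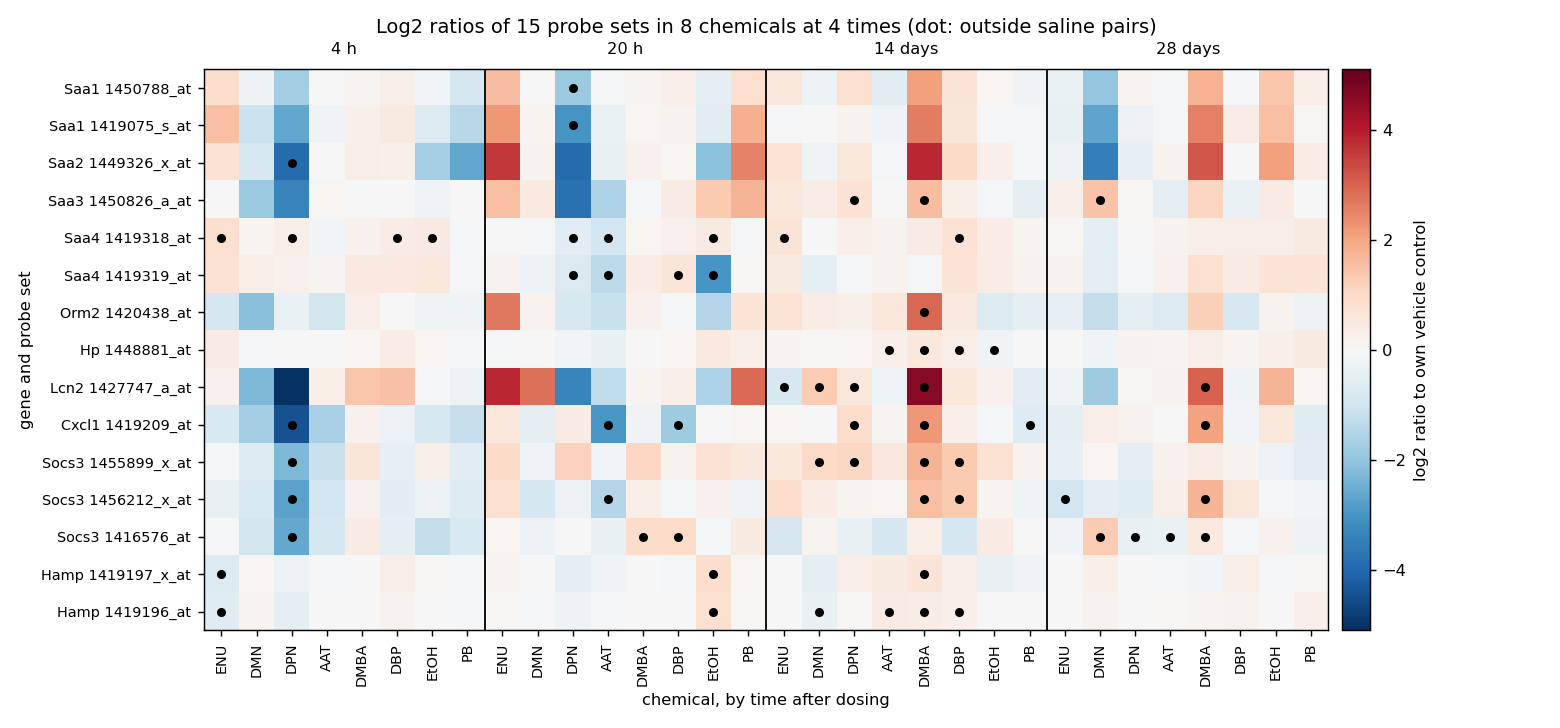
Log2 ratio of each chemical to its own vehicle control (colour) for the 15 probe sets (rows) in 8 chemicals at 4 times (columns), with a dot where the ratio exceeded every difference between saline controls of that time. DMBA at 14 days carries 9 dots and is red for Lcn2 (4.66) and Saa2 (3.86), and DPN at 4 h is blue for Lcn2 (-5.03) without a dot.

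DPN at 4 h had the lowest ratios. Lcn2 was 6.89 after DPN, against 11.91 in its own control, a ratio of -5.03, while saline controls differed by up to 6.09. Cxcl1 was 6.81, against 11.24 (-4.43, saline controls up to 4.26), and Saa2 was 8.79, against 12.72 (-3.93, up to 3.81). The Socs3 probe sets had ratios of -2.29, -2.71 and -2.62. In all, 5 of 15 members were lower than the saline pairs allow, against 8.33% of all probe sets. The DPN control was the highest control for Cxcl1, Lcn2, Saa2 and Saa3 at 4 h, so each of these ratios is taken against the highest of the 5 pools. The same control also had the highest signals of the 5 for the neutrophil markers S100a8 and S100a9. S100a8 was 5.02 after DPN, against 6.17, and S100a9 was 5.11, against 6.73, the highest of the 52 arrays. Of all 7 neutrophil markers, 3 were higher and 3 lower after DPN, with a median ratio of 0. The list averaged 6.10 after DPN and 6.47 in this control, against 6.08 to 6.52 over the 5 controls of 4 h. The part of these cells in these ratios was not tested.

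At 20 h DPN was lower beyond the saline pairs in 4 of 15 (Saa1 and Saa4, both probe sets of each), against 9.71% of all probe sets. Saa2 was 8.73 after DPN, against 12.66 in its control, a ratio of -3.93 where saline controls differed by up to 3.94. It lay below all 5 controls, although only just below the ENU control of 8.74. Cxcl1 had a ratio of 0.41 at this time.

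The ratios after ENU at 20 h ran the other way and none passed the saline pairs. Lcn2 was 9.76, against 5.90 (3.85), Saa2 was 12.36, against 8.74 (3.62), and Orm2 was 9.37, against 6.66 (2.71). The ENU control was the lowest saline control for all 3 genes, and the treated levels lay within those of the 5 controls. AAT at 20 h had Cxcl1 at 5.94, against 8.91 in olive oil (-2.97), with 4 of 15 members lower than the saline pairs allow, against 11.3% of all probe sets. This Cxcl1 level lay below 4 of the 5 controls and above the library labelled as the saline control of EtOH and PB, at 5.46, whose label is in doubt. PB at 20 h had ratios of 2.89 for Lcn2, 2.52 for Saa2 and 1.82 for Saa1 (1419075_s_at), each within the saline pairs, and these rest on the pair of libraries whose Cyp2b10 levels go against their labels. For EtOH at 20 h, Hamp was 13.13, against 12.23 (0.90, saline controls up to 0.77), above all 5 controls, on the array with the high Gapdh ratio. Its own control was the library whose label is in doubt, which was also the lowest of the saline pools.

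DMBA stood apart at 14 days. Lcn2 was 10.04 after DMBA, against 5.38 in its olive oil control and 5.38 to 5.93 over all 5 controls, a ratio of 4.66 (25.3-fold) where saline controls differed by up to 0.55. The other 7 chemicals had Lcn2 at 5.02 to 7.22 at that time, DMN being the highest. Orm2 was 8.59, against 5.66 (2.93, saline controls up to 1.64), Cxcl1 was 7.74, against 5.52 (2.22, up to 0.63), and Saa3 was 8.63, against 7.05 (1.58, up to 0.61). Each of these lay above all 5 controls.

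Saa1 and Saa2 were also above every control at 14 days, though not beyond the saline pairs. Saa2 was 11.24 after DMBA at 14 days, against 7.38 in olive oil, a ratio of 3.86, and the DMN control of 10.21 made the largest saline difference 3.97. Saa1 was 12.02 and 11.65, against 9.92 and 9.03 (2.10 and 2.63), likewise within the saline differences and above all 5 controls. Hp was 12.95, against 12.40 (0.55, saline controls up to 0.16). Socs3 had ratios of 1.74, 1.55 and 0.35, and Hamp of 0.64 and 0.39, with Hamp inside the range of the 5 controls.

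In all, 9 of the 15 probe sets were higher after DMBA at 14 days than the saline pairs allow, against 9.50% of all probe sets. The olive oil control, which the saline pairs leave out, was the lowest of the 5 for Lcn2, Cxcl1, Hp and Hamp. Hamp was among the 9 although inside the range of the 5 controls. The highest control for Cxcl1 was 6.74. Above all 5 controls lay 12 of 15, against 11.9% of all probe sets, and leaving out any 1 control left the count at 12. With values as deposited, unscaled, it was 3. DMBA was singled out after its values were seen, and with 1 array there is no test of this.

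The same chemical at 28 days, in other mice, had Lcn2, Saa2, Orm2 and Cxcl1 above the olive oil control with smaller ratios. Lcn2 was 8.46, against 5.44 (3.02, or 8.09-fold, saline controls up to 2.37), and Cxcl1 was 7.86, against 5.83 (2.04, up to 1.99). Saa2 was 10.37, against 7.21 (3.16, up to 4.50), and Orm2 was 7.50, against 6.29 (1.21, up to 1.73). Higher than the saline pairs allow were 4 of 15 members, against 7.97% of all probe sets, namely Lcn2, Cxcl1 and 2 Socs3 probe sets. Above all 5 controls were 6 of 15, against 13.1% of all probe sets, and 11 without the DMN control, which was the highest for Saa1, Saa2 and Orm2.

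**Figure D4:**
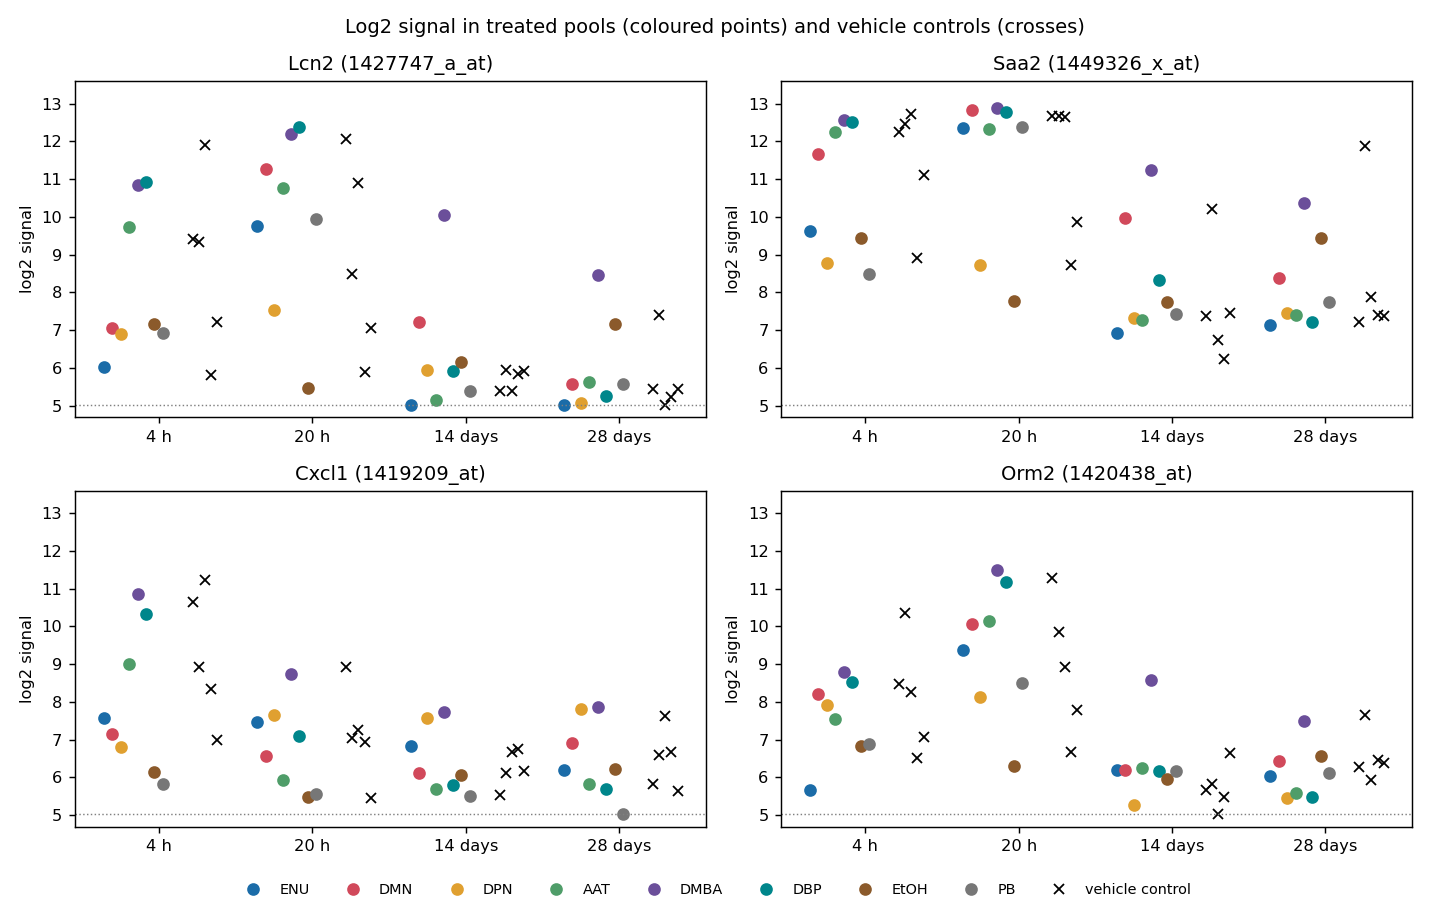
Log2 signal (vertical axis) of Lcn2, Saa2, Cxcl1 and Orm2 in the 8 treated pools (coloured points, 1 colour per chemical) and, right of them, the 5 vehicle controls (crosses) at each time, with a dotted line at the floor of 5.02. Among the points of 14 days DMBA is the highest for all 4 genes, at 10.04, 11.24, 7.74 and 8.59, and at 4 h the crosses, from 5.82 to 11.91, span every treated point of Lcn2.

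Of 19 further positive acute phase genes, 7 had DMBA ratios outside the saline pairs, in either direction, at 14 days and 7 at 28 days. Over the 8 chemicals, 16.6% and 15.3% of all ratios were outside at these times. After DMBA, 9.50% and 7.97% of all probe sets were outside on the higher side. Neither share is an exact match for these counts, which are of DMBA alone and of both directions. At each time 17 of the 19 ratios were positive and 2 negative. The medians of the 19 ratios were 0.45 and 0.28, against 0 over all probe sets at both times. At 14 days the fibrinogen genes Fga (0.18), Fgb (0.28) and Fgg (0.02) lay within the 5 controls, and Crp (-0.25) and Cd14 (-0.36) were below their own control. Mt1 had ratios of 3.07 and 4.57 at 14 and 28 days, Mt2 of 2.16 and 3.21, and Serpina3n of 1.25 and 1.14. The treated levels of these 3 genes were above all 5 controls at both times. Il1r1 was 6.52 and 7.86 after DMBA, against 5.02, the floor, in its olive oil control at both times. The 5 negative acute phase genes had median ratios of 0.16 and 0.02.

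The neutrophil marker list averaged 5.89 after DMBA at 14 days, against 5.88 to 6.17 in the 5 controls, and 6.35 at 28 days, against 5.81 to 6.19. The Kupffer cell list averaged 7.75 at 14 days, against 7.57 to 7.84 in controls, and 8.23 at 28 days, against 7.61 to 7.93. Both lists were inside the control range at 14 days and above it at 28 days. The endothelial list averaged 6.96 at 14 days, against 6.81 to 7.16, and 7.36 at 28 days, against 6.63 to 7.06, and the fat cell marker Fabp4 was 6.63 at 28 days, against 5.50 to 6.47. Of the 7 neutrophil markers, 2 were above and 4 below their own control at 14 days (median ratio -0.18), and 4 above and 2 below at 28 days (0.02). Of the 7 Kupffer cell markers, 4 were above and 3 below at 14 days, and 7 above at 28 days. Single markers picked from these lists also passed the controls at 14 days. S100a8 was 5.49 after DMBA, against the floor of 5.02 in all 5 controls, and the macrophage marker Cd68 was 6.76, against 6.32 to 6.52. At 28 days S100a8 was 5.54, against 5.02, S100a9 was 6.25, against 5.02 to 5.43, and Cd68 was 7.00, against 6.33 to 6.64. The part of these cells in the result was not tested.

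The remaining chemicals gave scattered values at the late times. DMN at 28 days had Saa2 at 8.39, against 11.87 in its own control, a ratio of -3.47 that rests on the high DMN control. EtOH at 28 days had Saa2 at 9.45, against 7.36 (2.08), and Lcn2 at 7.17, against 5.45 (1.72), both within the saline pairs. DBP at 14 days was higher beyond the saline pairs in 5 of 15 members, against 12.9% of all probe sets, with ratios from 0.25 (Hamp) to 1.34 (Socs3). DPN at 14 days was higher in 4 of 15, against 15.9% of all probe sets, among them Cxcl1 at 7.57, against 6.69 (0.88), and at 28 days its Cxcl1 was 7.81, against 7.64 (0.18).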

How the data were processed

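Probe-set intensity from 52 Affymetrix arrays was deposited by the authors as 1 table of 22690 probe sets on a linear scale (software and scaling: not given in the sources used here). Columns of all 52 arrays entered the work and 0 were unused. After removal of 64 Affymetrix controls, arrays were brought to 1 median, the mean of their medians (76.6). Values under the 30th percentile (32.5) were raised to it before log2 was taken, and probe sets exceeding it on 4 or more arrays were kept. The number of arrays limits the precision.

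Class effects were fitted per time with limma 3.58.1 in R 4.3.3 (lmFit, eBayes with trend) with the control set as a block, and control pools of different times without a block, after checks on simulated data. Adjusted p-values are Benjamini-Hochberg over all 18349 kept probe sets, called under 0.05. Ratios of single chemicals had no test and were set against the 6 pairs of saline controls of a time. Genes outside the 10 were named where called within a gene list, or as the 5 most alike in controls. Outside these rules, S100a8, S100a9, Cd68, Fabp4, Fga, Fgb, Fgg, Crp and Cd14 were picked from the lists to give their values after single chemicals. The genes, lists and tests were chosen with earlier results of these data known. Alternatives covered scaling, floor, filter, block, trend, pairs and left-out chemicals or controls; those without the DMN controls of 14 and 28 days, without the EtOH and PB set's arrays of 20 h, against the range of 5 controls, ratios without DMBA, and DMBA without each control were chosen after seeing the data. Sequences were read from the RefSeq promoter table with Python 3.11.15 and aligned with Biopython 1.88; figures used matplotlib 3.10.9.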

Additional observations from a re-analysis of the deposited data

Results flagged for a closer look

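In 3 of 60 groups of 4 saline controls, 1 pool stood far from the other 3, and chance alone gives about 1 in 20. Saa1 (1419075_s_at) was 12.4 in the DMN saline control of 28 days, against 8.71 to 9.28 in the other 3. Saa2 was 11.87 in that same pool, against 7.36 to 7.88. Hp was 12.66 in the library labelled as the saline control of EtOH and PB at 20 h, whose Cyp2b10 log2 signal of 11.48 goes against that label, against 13.34 to 13.35 in the other 3.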

How the results depend on the processing

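Of 949 alternative values for 76 results, 849 were rated unchanged, 54 lost the threshold, 4 gained it, 41 moved and 1 reversed. For a test, unchanged means the same direction and side of the threshold. For a count it means close to the main count, including 0 that stayed 0. For a DMBA ratio it means within the SD of the saline controls. The 1 reversal was the genotoxic difference of Saa2 at 4 h, -0.82, which ranged from -1.27 without ENU to 0.063 without DPN. Over the fits without 1 control set, members called lower in controls were 0 in each fit at 20 h, 1 to 10 at 14 days and 0 to 1 at 28 days. With values as deposited the counts were 0, 0 and 0, and quantile normalization gave 6 at 14 days. The control set as a block gave 13 at 14 days, adding Lcn2, Saa3 and Hp. Saline controls alone gave 2 at 14 days and 0 at 28 days, and leaving out the DMN controls of 14 and 28 days gave 0 at 20 h and 0 at 28 days. Non-genotoxic members called at 20 h ranged from 0 to 1 without 1 chemical. Member ratios outside the saline pairs were 3 at 14 days and 21 at 28 days with values as deposited, 7 at 20 h and 17 at 14 days with all 10 control pairs, and 6, 5, 0 and 1 at the 4 times with 24 pairs of all times. Without DMBA they were 11, 15, 18 and 5. By another criterion, treated levels outside the range of the 5 controls, the counts were 35, 39, 43 and 29. Without 1 saline control, member ratios outside the saline pairs ranged from 12 to 19, 17 to 23, 30 to 36 and 9 to 23. DMBA members above all controls at 14 days were 3 with values as deposited; at 28 days they ranged from 6 to 11 without 1 control. The cause of these differences was not tested. All these alternative counts stand without the share over all probe sets in the same setting. They show how far the member counts moved, and not how the members compare with all probe sets. Unscaled values carry array medians that differ many-fold. Each pool gave 1 array, so the spread between mice is unknown.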
